A study of Mus musculus with 6 samples.

Results

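Macrophages and monocytes are the phagocytes of the innate immune system, and 35 genes that mark them were examined in mouse olfactory epithelium after one nostril had been closed. The genes were taken as a list that was chosen with earlier results of these data known. Each was read from the probe set whose annotation named that gene alone. Of the 35, 32 had such a probe set, each exactly 1, out of 23332 probe sets on the array. Lyz2 and Ms4a7 were covered only by probe sets that also name a second gene, no probe set carried the name of Mpeg1, and these 3 were not analysed here.

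The study compared C57Bl/6 mice 5 days after unilateral naris occlusion. The occluded group was olfactory epithelium from the closed side (3 arrays), and the contralateral group was olfactory epithelium from the open side (3 arrays). Both groups came from operated animals, 3 in all, and no unoperated mice were analysed here. Per the labels the closure lowers odour stimulation on the closed side and raises it on the open side. Age and sex are not given in the labels, and neither is the mouse behind each array, so p-values measure only the spread between these arrays. Whole homogenised tissue was measured, so more cells of a type and more RNA per cell cannot be told apart.

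Macrophages of the olfactory mucosa lie in the lamina propria and within the epithelium, where they are known to clear dying sensory neurons and to take part in the turnover of the neuronal layer. Their development depends on the receptor Csf1r and the transcription factor PU.1, the product of Spi1. They engulf targets marked by antibody or by complement C1q, and they sense microbes through Toll-like receptors and their partners. Receptors without signalling tails of their own act through the adaptors Tyrobp and Fcer1g, which carry tyrosine activation motifs.

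Promoter windows are shown for Cd68 and Laptm5, which stood high on 1 occluded array, and for Ctss and Aif1, whose sides had nearly equal means, since all 4 hold the same short motif. Windows come from RefSeq (GRCm38.p6), run 5′ to 3′ from 250 bases before to 50 bases after the gene's start, and show the letters GAGGAA, the PU box bound by PU.1, or its reverse complement TTCCTC in capitals. Cd68 lies at chr11:69666121-69666420 (minus strand), Laptm5 at chr4:130913066-130913365 (plus strand), Ctss at chr3:95526536-95526835 (plus strand) and Aif1 at chr17:35176003-35176302 (minus strand).
Cd68: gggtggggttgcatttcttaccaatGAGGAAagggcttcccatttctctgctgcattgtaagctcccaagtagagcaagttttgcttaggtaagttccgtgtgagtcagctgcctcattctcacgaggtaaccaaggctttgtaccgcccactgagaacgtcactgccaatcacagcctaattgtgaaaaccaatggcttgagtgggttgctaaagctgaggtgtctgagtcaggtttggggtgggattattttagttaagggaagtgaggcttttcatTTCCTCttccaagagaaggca
Laptm5: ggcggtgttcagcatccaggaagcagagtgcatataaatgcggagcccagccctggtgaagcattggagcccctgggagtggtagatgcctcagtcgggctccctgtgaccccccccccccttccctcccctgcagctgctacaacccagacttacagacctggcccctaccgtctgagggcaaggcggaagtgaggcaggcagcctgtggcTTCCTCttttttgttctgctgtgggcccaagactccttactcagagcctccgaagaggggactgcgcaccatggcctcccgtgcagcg
Ctss: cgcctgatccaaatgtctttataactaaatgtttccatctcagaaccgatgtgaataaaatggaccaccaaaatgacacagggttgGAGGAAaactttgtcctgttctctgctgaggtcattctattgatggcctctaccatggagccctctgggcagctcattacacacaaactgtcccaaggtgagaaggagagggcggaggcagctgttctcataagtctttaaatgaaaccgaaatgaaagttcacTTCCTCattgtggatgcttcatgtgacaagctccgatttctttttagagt
Aif1: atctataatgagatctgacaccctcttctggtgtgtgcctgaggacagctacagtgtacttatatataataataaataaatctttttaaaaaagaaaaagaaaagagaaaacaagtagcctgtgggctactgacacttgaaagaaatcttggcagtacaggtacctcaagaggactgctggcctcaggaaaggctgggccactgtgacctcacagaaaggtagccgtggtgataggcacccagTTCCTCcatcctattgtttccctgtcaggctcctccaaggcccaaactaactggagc

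Windows were at hand for 24 of the 35 genes. GAGGAA was found on either strand in 16 of the 24, or 66.7%, against 31.3% of all 27025 genes in the table. The longer form GAGGAAGT, which contains GAGGAA, was found in 3 of 24 (C1qc, Cd53 and Ctss), or 12.5%, against 3.69% of all genes. The 4 windows shown were picked from those that hold the short motif, with 2 matches each in Cd68 and Ctss and 1 each in Laptm5 and Aif1. There was no match in Fcer1g and Gpnmb, which also stood high on that array, or in Cx3cr1, Cd163 and Ly86, whose differences were near 0. The match is a description of these letters and not evidence of binding.

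Over the whole array, median log2 values lay between 7.94 and 8.12, no arrays were identical, and occluded replicate 1 stood apart, with correlations of 0.977 to 0.983 to the other arrays, which correlated at 0.986 to 0.989 among themselves. The log2 differences of genes and the list medians below are therefore given with and without it. The tissue label matched its markers: 13 measured genes of mature olfactory sensory neurons had mean log2 levels of 11.20 to 11.33 on occluded arrays and 11.12 to 11.19 on contralateral arrays. The macrophage label was checked against 21 genes not expected in nasal tissue, whose median level was 6.35. Of the 32 macrophage and monocyte genes, 30 lay above that level over the 6 arrays, and 15 lay above the highest of the 21, at 7.78. Cd86 and Msr1 lay below the median, so the size of their differences is not well measured. Cd14, at 6.90, and Fcgr3, at 6.77, lay between the median and that highest level. So did Cd163, Marco, Clec7a, Aif1, Fcgr1, Adgre1, Cd74, Spi1, Gpnmb, Trem2, Tlr2, Cd84 and Cybb. Genes not expected in nasal tissue also reached levels in that range, so these differences are measured with less certainty.

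Most macrophage and monocyte genes had a small positive log2 difference, occluded minus contralateral. It was above 0 for 29 of 32, against 64.8% of all probe sets, with a median of 0.21 against 0.06 for all probe sets. None passed the test: limma with Benjamini-Hochberg adjustment called 0 of 32, against 0.0% of all probe sets, and their adjusted p lay between 0.823 and 0.998. At an unadjusted p under 0.05 there were 3 higher genes, Tyrobp, Cd14 and Fcgr3, or 9.38% against 3.81% of all probe sets, and 0 lower, against 1.47%. The count of 3 became 1 without occluded replicate 1. It was 0 without contralateral replicate 2, against 2.21% of all probe sets, and 7 without occluded replicate 3 (21.9%, against 4.24%). The groups did not overlap, with the occluded side higher, in 3 genes, Tyrobp, Cd14 and Cd68, or 9.38% against 7.49% of all probe sets, and 0 genes showed the opposite order, against 3.24%. Without occluded replicate 1 the same 3 genes, 9.38%, were below the share of all probe sets, which was then 11.2%, and 0 showed the opposite order, against 7.83%.

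The excess lay mainly on 1 array. Occluded replicate 1 was the highest of the 6 arrays in 25 of the 32 genes, or 78.1%, against 46.0% of all probe sets. It lay above every contralateral array in 29 genes (90.6%, against 51.6% of all probe sets), occluded replicate 2 in 10 (31.2%, against 24.0%) and occluded replicate 3 in 11 (34.4%, against 29.1%). Measured from the contralateral mean, the median gene stood at 0.42, 0.06 and 0.08 on occluded replicates 1, 2 and 3. The median of all probe sets stood at 0.13, 0.003 and 0.03 on the same arrays. Occluded replicate 1 also had the highest median level of the 6 arrays, 8.12. At the other end, contralateral replicate 2 was the lowest array in 20 genes, with a median of -0.14, against 0.05 and 0.06 for contralateral replicates 1 and 3. Over all probe sets contralateral replicate 2 stood at -0.04 and had the lowest median level of the 6 arrays, 7.94. The share of all probe sets in which it was the lowest was not counted. Without occluded replicate 1 the log2 difference was above 0 in 25 genes, or 78.1%, against 55.3% of all probe sets, with a median of 0.10 against 0.02. Then 1 gene, Tyrobp, was higher at an unadjusted p under 0.05 (3.12%, against 3.54%) and 0 were lower (against 1.8%), and 0 passed after adjustment (against 0.0%).

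The balance also depended on the scaling between arrays. With each array centred on its own median the median log2 difference was 0.13 for the 32 genes and -0.02 for all probe sets, and 24 of the 32 (75.0%, against 43.5%) lay above 0. Among all probe sets an unadjusted p under 0.05 was then reached by 510 that were higher and by 873 that were lower, in place of 890 and 343. Tyrobp was the 1 higher gene of the 32 (3.12%, against 2.19%) and 0 were lower (against 3.74%). With centring and without occluded replicate 1 the medians were 0.05 and -0.03, 22 genes lay above 0 (68.8%, against 40.6%), and 1 was higher at an unadjusted p under 0.05 (3.12%, against 2.52%).

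**Figure D1:**
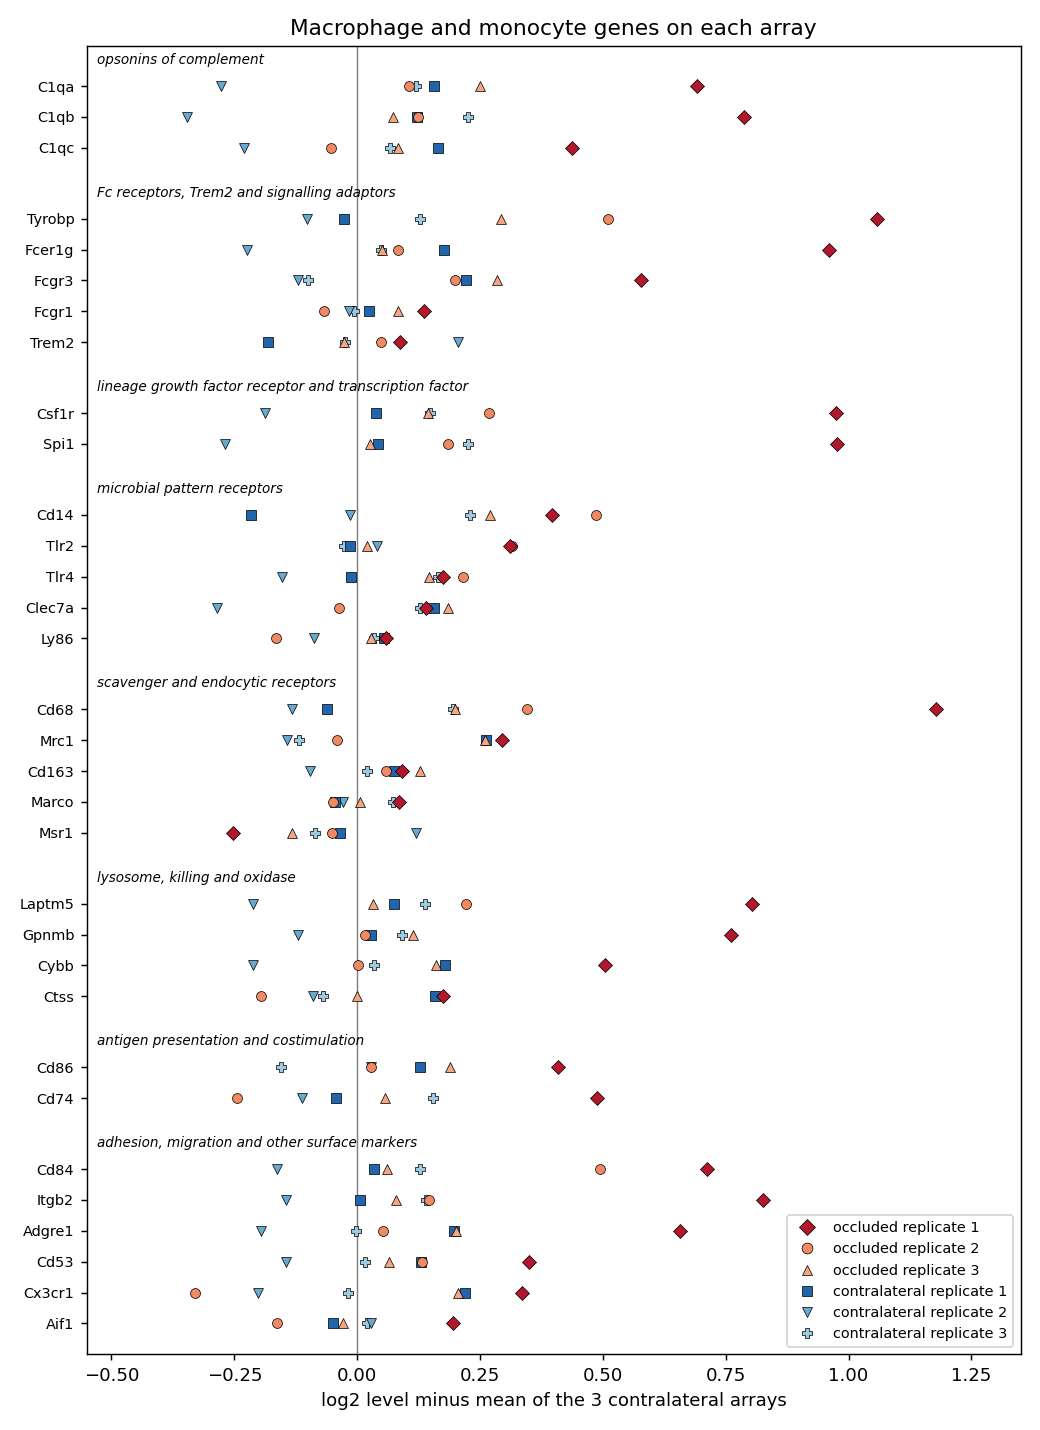
Each point is the log2 level of a gene on an array minus its mean over the 3 contralateral arrays, with genes grouped by role. Occluded replicate 1 (diamonds) was the highest array in 25 of 32 genes (78.1%, against 46.0% of all probe sets). Contralateral replicate 2 (downward triangles) was the lowest in 20, and its median level over all probe sets was also the lowest of the 6 arrays.

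**Figure D2:**
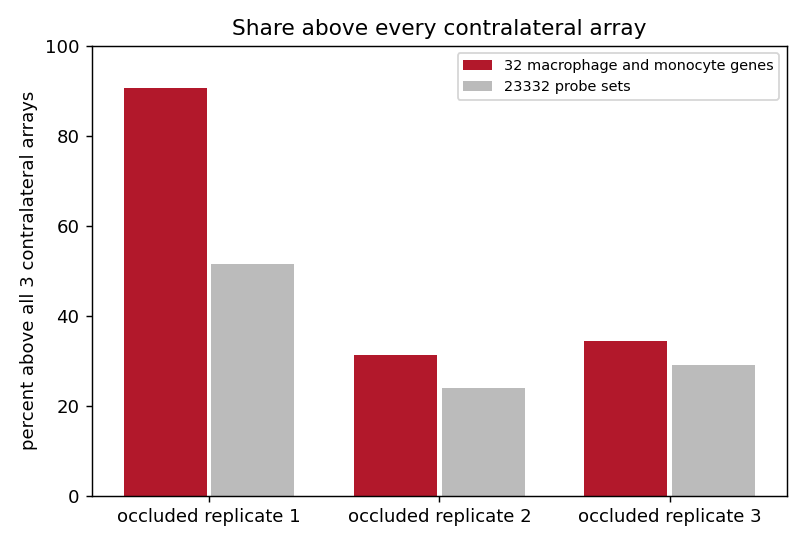
Bars give the percent of genes that lay above all 3 contralateral arrays on each occluded array, for the 32 macrophage and monocyte genes and for all 23332 probe sets. The shares were 90.6% against 51.6% on occluded replicate 1, 31.2% against 24.0% on replicate 2 and 34.4% against 29.1% on replicate 3.

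Among the Fc receptors and adaptors, all 5 measured genes lay above 0, with a median log2 difference of 0.35, or 0.07 without occluded replicate 1. Tyrobp, the DAP12 adaptor that signals for Trem2 and related receptors, had log2 levels of 8.88, 8.33 and 8.11 on occluded replicates 1, 2 and 3, against 7.79, 7.72 and 7.95 on contralateral replicates 1, 2 and 3. Every occluded array was above every contralateral one, by 0.16 at the closest. The means were 8.44 ± 0.39 on the occluded side and 7.82 ± 0.12 on the contralateral side (SD, n = 3 each), a difference of 0.62 (SE 0.20, 95% interval 0.15 to 1.09), or 1.54-fold, at a limma adjusted p of 0.823. Without occluded replicate 1 the difference was 0.40 (SE 0.11). Fcgr3, a low-affinity receptor for IgG with close relatives in sequence that could share probes, had levels of 7.17, 6.79 and 6.87 on the occluded arrays, against 6.81, 6.47 and 6.49 on the contralateral arrays. Contralateral replicate 1 lay within the occluded range, and the difference was 0.35 (SE 0.14), or 0.24 (SE 0.13) without occluded replicate 1.

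The second adaptor did not share that pattern on every array. Fcer1g, the common gamma chain of Fc receptors, stood at 9.47 on occluded replicate 1, but its levels of 8.59 and 8.56 on the other occluded arrays fell among the contralateral values of 8.69, 8.29 and 8.56. Its difference of 0.36 (SE 0.26) was 0.07 (SE 0.13) without that array. Fcgr1, the high-affinity IgG receptor, was at 0.05 (SE 0.09, 95% interval -0.17 to 0.27), and Trem2, a lipid-sensing receptor that uses Tyrobp, at 0.04 (SE 0.12, 95% interval -0.25 to 0.32), and both were at 0.01 without occluded replicate 1.

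The C1q chains, which together form the opening component of the classical complement pathway, had log2 differences of 0.35 (SE 0.19) for C1qa, 0.33 (SE 0.24) for C1qb and 0.16 (SE 0.16) for C1qc. C1qa had levels of 8.50, 7.92 and 8.06 on the occluded arrays, against 7.97, 7.53 and 7.93 on the contralateral arrays. The groups overlapped, with occluded replicate 1 the highest array and contralateral replicate 2 the lowest, as they also were in C1qb and C1qc. Without occluded replicate 1 the differences of the 3 chains were 0.18, 0.10 and 0.01.

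Csf1r, the receptor for the macrophage growth factors CSF1 and IL-34, had log2 levels of 10.21, 9.51 and 9.38 on the occluded arrays, against 9.28, 9.05 and 9.39 on the contralateral arrays. Spi1, which encodes PU.1, had levels of 8.12, 7.33 and 7.17 on the occluded arrays, against 7.19, 6.88 and 7.37 on the contralateral arrays. In both genes occluded replicate 1 stood far above the other 5 arrays, at 0.98 above the contralateral mean, and occluded replicate 3 lay inside the contralateral range. The difference of Csf1r was 0.46 (SE 0.23), or 0.21 (SE 0.12) without that array, and that of Spi1 was 0.40 (SE 0.26), or 0.11 (SE 0.16).

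The median log2 difference of 5 receptors for microbial patterns was 0.18 with occluded replicate 1 and 0.17 without it. Cd14, the co-receptor for lipopolysaccharide, had levels of 7.10, 7.19 and 6.97 on the occluded arrays, against 6.49, 6.69 and 6.94 on the contralateral arrays. The groups did not overlap, but the closest arrays were 0.04 apart, and the highest value belonged to occluded replicate 2. The difference was 0.38 (SE 0.13, 95% interval 0.06 to 0.70), or 1.31-fold, at a limma adjusted p of 0.823, and 0.38 (SE 0.16) without occluded replicate 1. Tlr4, the lipopolysaccharide receptor itself, had levels of 7.95, 7.99 and 7.92 on the occluded arrays, against 7.76, 7.62 and 7.94 on the contralateral arrays. Its occluded values were close together, contralateral replicate 3 lay among them, and the difference was 0.18 both with (SE 0.11) and without (SE 0.12) occluded replicate 1. Tlr2, a receptor for bacterial lipoproteins, had levels of 7.75, 7.75 and 7.46 on the occluded arrays, against 7.43, 7.48 and 7.41 on the contralateral arrays. Occluded replicates 1 and 2 stood above all contralateral arrays and occluded replicate 3 did not, with a difference of 0.22 (SE 0.11), or 0.17 (SE 0.11) without occluded replicate 1. Clec7a, the beta-glucan receptor dectin, was at 0.10 (SE 0.14), or 0.07 without that array, and Ly86, the partner protein of Cd180, at -0.03 (SE 0.10), or -0.07.

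The scavenger and endocytic receptors had log2 differences that ran from -0.15 to 0.57 and a median of 0.09 both with and without occluded replicate 1. Cd68, a lysosomal glycoprotein of macrophages, had levels of 10.82, 9.99 and 9.84 on the occluded arrays, against 9.58, 9.51 and 9.84 on the contralateral arrays. Occluded replicate 1 was 1.18 above the contralateral mean, the furthest of any of the 32 genes, while the lowest occluded and highest contralateral arrays were 0.005 apart. The difference was 0.57 (SE 0.26, 95% interval -0.04 to 1.19), or 0.27 (SE 0.13) without that array. Mrc1, the mannose receptor of tissue-resident macrophages, had levels of 8.09, 7.75 and 8.05 on the occluded arrays, against 8.05, 7.65 and 7.67 on the contralateral arrays. Those ranges were nearly the same, with a difference of 0.17 (SE 0.15), or 0.11 (SE 0.17) without occluded replicate 1. Msr1, a scavenger receptor for modified lipoproteins, had the lowest difference of the 32, at -0.15 (SE 0.10), with dim levels of 4.89, 5.10 and 5.01 on the occluded arrays, against 5.11, 5.27 and 5.06 on the contralateral arrays. Its order was reversed, with occluded replicate 1 lowest and contralateral replicate 2 highest, and the difference was -0.09 (SE 0.10) without occluded replicate 1. Cd163, the receptor for haemoglobin bound to haptoglobin, was at 0.09 (SE 0.09) both with and without that array, and Marco, a bacterial scavenger receptor, at 0.01 (SE 0.09), or -0.02 without it.

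The 4 measured lysosomal and oxidase genes had a median log2 difference of 0.26, or 0.07 without occluded replicate 1. Laptm5, a lysosomal membrane protein of leukocytes, had log2 levels of 10.94, 10.35 and 10.17 on the occluded arrays, against 10.21, 9.92 and 10.27 on the contralateral arrays. Its difference of 0.35 (SE 0.21) was 0.13 (SE 0.14) without occluded replicate 1, and occluded replicate 3 lay below contralateral replicates 1 and 3. Gpnmb, a glycoprotein of lysosome-rich phagocytes and osteoclasts, was at 0.30 (SE 0.20), or 0.06 (SE 0.10) without that array, and Cybb, the catalytic subunit of the phagocyte oxidase, at 0.22 (SE 0.16), or 0.08 (SE 0.14). Ctss, the protease that trims the invariant chain, was at -0.01 (SE 0.13, 95% interval -0.31 to 0.30), or -0.10 (SE 0.12) without that array. Of the antigen presentation genes, Cd74, the invariant chain, was at 0.10 (SE 0.19), or -0.09 without occluded replicate 1, and Cd86, a ligand that costimulates T cells, at 0.21 (SE 0.13), or 0.11.

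Among surface and migration genes, Adgre1, which encodes the classical surface antigen of mouse macrophages, had log2 levels of 7.76, 7.15 and 7.30 on the occluded arrays, against 7.30, 6.90 and 7.10 on the contralateral arrays. Occluded replicate 1 stood alone above the rest, and the difference was 0.30 (SE 0.18), or 0.13 (SE 0.14) without it. Itgb2, the shared beta chain of the leukocyte integrins, had levels of 8.60, 7.92 and 7.85 on the occluded arrays, against 7.77, 7.62 and 7.91 on the contralateral arrays, with a difference of 0.35 (SE 0.21), or 0.11 (SE 0.11). Cd84, a receptor of the SLAM family, had levels of 8.05, 7.84 and 7.40 on the occluded arrays, against 7.38, 7.18 and 7.47 on the contralateral arrays. Occluded replicates 1 and 2 stood above all contralateral arrays, and the difference was 0.42 (SE 0.18), or 0.28 (SE 0.16). Cx3cr1, the fractalkine receptor, had levels of 8.30, 7.63 and 8.17 on the occluded arrays, against 8.18, 7.76 and 7.94 on the contralateral arrays. Its occluded values held both the highest and the lowest array, and the difference was 0.07 (SE 0.20), or -0.06 (SE 0.20). The tetraspanin Cd53 was at 0.18 (SE 0.12), or 0.10 (SE 0.11). Aif1, the actin-binding protein Iba1 used to stain macrophages, was at 0.00 (SE 0.11, 95% interval -0.27 to 0.27), or -0.10 (SE 0.09) without occluded replicate 1.

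**Figure D3:**
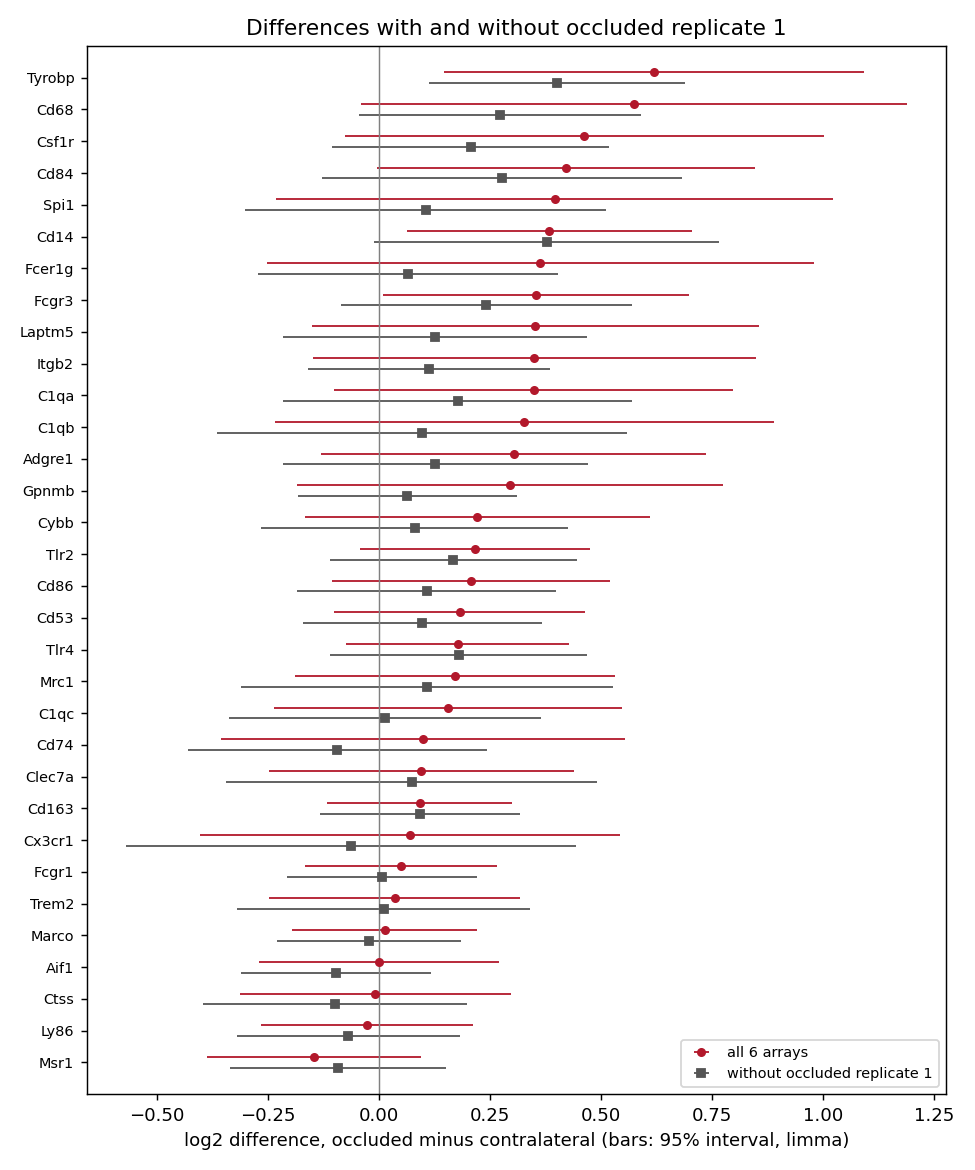
Log2 difference of each gene, occluded minus contralateral, with 95% intervals from limma, for all 6 arrays (circles) and without occluded replicate 1 (squares). Tyrobp was at 0.62 and 0.40, Cd14 at 0.38 in both, and Fcer1g at 0.36 and 0.07.

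Differences varied among the 32 genes. In 13 the log2 difference was above 0.3, and in 9 it was within 0.1 of 0. The shares of all probe sets in these ranges were not counted, so neither count can be called unusual. On occluded replicate 1 the deviation from the contralateral mean ran from -0.25 for Msr1 to 1.18 for Cd68, with Tyrobp at 1.06, Fcer1g at 0.96 and Laptm5 at 0.80, but Ctss at 0.17, Cd163 at 0.09, Trem2 at 0.09 and Ly86 at 0.06. The median of all probe sets on that array was 0.13.

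Other genes of macrophage pathways had a median nearer to 0. Of 109 measured genes, 89 lay above 0, against 64.8% of all probe sets, with a median log2 difference of 0.13 against 0.06. Without occluded replicate 1 there were 69 above 0, against 55.3% of all probe sets, with a median of 0.03 against 0.02. Over all 6 arrays adjusted limma calls numbered 0. An unadjusted p under 0.05 was then reached by 6 higher genes, or 5.50% against 3.81% of all probe sets, and 0 lower ones, against 1.47%. Without occluded replicate 1 it was reached by 5 higher genes, or 4.59% against 3.54%, and 1 lower one, against 1.8% of all probe sets. The lysosomal and lipid-handling list was above 0 in 14 of 14 genes (12 without occluded replicate 1), with a median of 0.24 (0.12 without that array). Its examples were the protease inhibitor Cst3 at 0.32 (SE 0.10), or 0.28 without that array, and the cholesterol carrier Npc2 at 0.38 (SE 0.16), or 0.21. The list of tyrosine kinases and adaptors downstream of activation motifs was above 0 in 10 of 10 (8 without occluded replicate 1), with a median of 0.23 (0.06). Among them was Syk, the kinase that binds those motifs, at 0.24 (SE 0.11), or 0.14. Syk had a mean of 6.64 over the 6 arrays, a level also reached by genes not expected in nasal tissue. Tissue-resident macrophage genes had a median of 0.20 (0.07), with Mertk, a receptor for the clearance of apoptotic cells, at 0.37 (SE 0.14), or 0.22.

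The other pathway lists had medians of at most 0.22, and of at most 0.06 without occluded replicate 1. Inflammatory monocyte and cytokine genes had a median of 0.05, or -0.00 without occluded replicate 1, with Chil3, a secreted chitinase-like protein, at 0.38 (SE 0.14), or 0.42 without that array, at a dim level, and Ccl2, the chemokine that draws monocytes, at -0.15 (SE 0.10), or -0.21. Lineage transcription factors other than Spi1 had a median of 0.06 (-0.01), with Irf8 at 0.17 (SE 0.13), or 0.07. Complement receptors and components had a median of 0.18 (0.00), growth factors and cytokine receptors 0.22 (0.04), other Fc and inhibitory receptors 0.04 (-0.02), the Toll-like receptor pathway 0.13 (0.03), further oxidase subunits 0.10 (0.01), MHC class II 0.09 (-0.02) and integrins with leukocyte cytoskeleton 0.15 (0.06). Examples were H2-Ab1, an MHC class II chain, at 0.39 (SE 0.22), Cd52, a leukocyte surface protein, at 0.64 (SE 0.24), and Cd180, the partner of Ly86, at 0.28 (SE 0.12). Without occluded replicate 1 these were 0.17 for H2-Ab1, 0.35 for Cd52 and 0.17 for Cd180. Cd180 was dim, with a mean of 6.31 over the 6 arrays, below the median of the genes not expected in nasal tissue. Cd52, at 6.69, and H2-Ab1, at 7.56, lay above that median but within the range of those genes.

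Markers of other cells also stood high on occluded replicate 1, and their part in the macrophage values was not tested. Osteoclasts, which arise from the macrophage lineage and express many of the same genes, had 7 of 8 markers above 0, with a median log2 difference of 0.44 (0.22 without occluded replicate 1). Their mean levels were 9.43 to 10.16 on occluded arrays and 9.22 to 9.61 on contralateral arrays, and Ctsk, the collagen-degrading protease, was at 0.51 (SE 0.18), or 0.38. Connective tissue and bone had 13 of 13 above 0, with a median of 0.35 (0.18) and mean levels of 11.46 to 11.85 on occluded arrays and 11.27 to 11.44 on contralateral arrays. Endothelium had 12 of 12 above 0, with a median of 0.28 (0.15) and mean levels of 7.95 to 8.47 on occluded arrays and 7.79 to 7.98 on contralateral arrays. The median marker on occluded replicate 1 stood above the contralateral mean by 0.84 for osteoclasts, 0.59 for connective tissue and bone and 0.59 for endothelium, against 0.42 for the 32 macrophage and monocyte genes. The median of all probe sets on that array was 0.13.

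Markers of respiratory ciliated cells, sensory neurons and sustentacular cells lay on both sides of 0, and their part in the macrophage values was likewise not tested. Respiratory ciliated cells, which bear motile cilia, had 8 of 9 markers above 0, with a median log2 difference of 0.27 (0.21 without occluded replicate 1) and mean levels of 8.54 to 8.81 on occluded arrays and 8.26 to 8.73 on contralateral arrays. Mature olfactory sensory neurons had 11 of 13 above 0 and a median of 0.15 (0.12). Immature olfactory sensory neurons had 0 of 9 above 0 and a median of -0.05 (-0.07), with mean levels of 10.95 to 11.11 on occluded arrays and 11.05 to 11.19 on contralateral arrays. Sustentacular cells, the supporting cells of the epithelium, had 4 of 8 above 0 and a median of -0.00 (-0.02).

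Among other blood-derived cells, the 4 erythroid genes stood at 1.10 on occluded replicate 2 and at 0.05 on occluded replicate 1, with a median difference of 0.47 (0.69 without occluded replicate 1). Neutrophil genes had 9 of 13 above 0 and a median of 0.18 (0.17 without occluded replicate 1), with mean levels of 7.32 to 7.51 on occluded arrays and 7.17 to 7.22 on contralateral arrays. The mean of these genes was thus higher on every occluded array than on any contralateral array, and their part in the macrophage values was not tested. The same order held for the 32 macrophage and monocyte genes, with a lowest occluded mean of 7.69 and a highest contralateral mean of 7.67. It also held for connective tissue and bone and for mature olfactory sensory neurons. Ngp, a granule protein of neutrophils, was at 0.79 (SE 0.15), or 0.89 without occluded replicate 1, with a limma adjusted p of 0.805. Its mean over the 6 arrays, 6.57, lay in the range also reached by genes not expected in nasal tissue. T and NK cell genes had a median of -0.01 (-0.02), with 5 of 11 above 0, B and plasma cell genes one of -0.00 (-0.05), with 3 of 7, dendritic cell genes one of 0.03 (0.05), with 5 of 8, and mast cell genes one of 0.04 (0.01), with 4 of 7. Microglia genes, a check for macrophages of the brain, had a median of 0.09 (0.11) with 5 of 7 above 0.

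**Figure D4:**
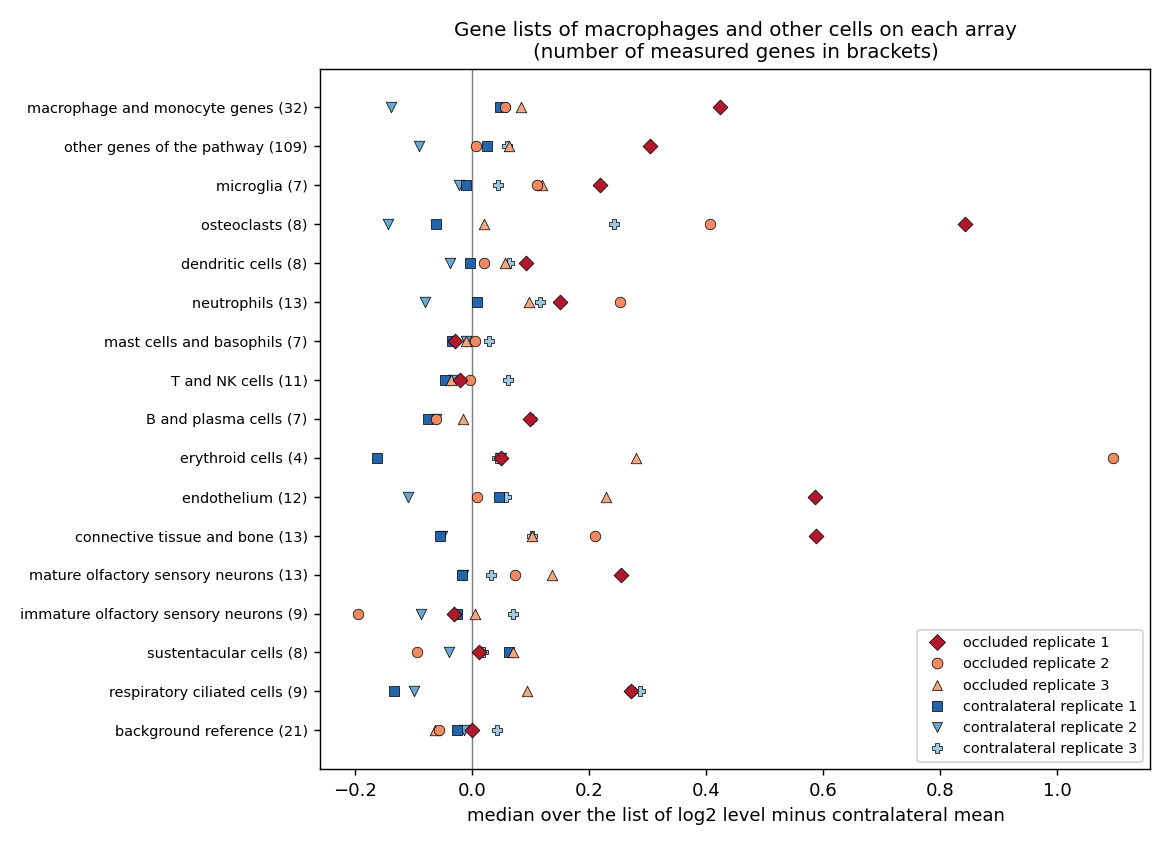
Each point is the median, over the genes of a list, of the log2 level on an array minus the mean of the contralateral arrays. On occluded replicate 1 the macrophage and monocyte genes stood at 0.42, osteoclast genes at 0.84 and T and NK cell genes at -0.02, and erythroid genes stood at 1.10 on occluded replicate 2. All probe sets, which are not drawn, had a median of 0.13 on occluded replicate 1.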

How the data were processed

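RNA of olfactory epithelium, 3 samples a side, was measured on Affymetrix Mouse Exon 1.0 ST arrays. The authors deposited log2 values from RMA, run in Expression Console for core genes per the labels; the base 2 was inferred from the range of values. The software's version is not given in the sources that were at hand. RMA makes probe distributions alike across arrays, which can shrink differences shared by many genes.

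Names came from the platform annotation, with 14996 of 23332 probe sets carrying 1 symbol, 1019 several and 7317 none; all 32 genes matched the reference table by Entrez identifier. Where a symbol had several probe sets, the one with the highest mean level was used. limma 3.58.1 (R 4.3.3; lmFit, then eBayes, two-sided) compared the sides over all probe sets, with Benjamini-Hochberg adjustment and a threshold of 0.05. Permuting 3 against 3 exactly gives no two-sided p under 0.1, so it was not used. The fit was tested on simulated data, drawn independently for each array. The simulated data held no outlying array and no shared mice, so the test does not cover these features. Genes printed with all 6 values were the 12 with the smallest p, 6 defining markers and the gene with the lowest difference; Fcer1g was added after its values were seen, and list examples are among the 2 genes of smallest p in each list. The genes, their roles and the other lists were chosen with earlier results of these data known. In all, 5 letter strings were counted in the promoter windows, and the 2 printed were chosen after their counts were seen. Alternatives are listed in the closing section.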

Additional observations from a re-analysis of the deposited data

How the results depend on the processing

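No macrophage or monocyte gene passed an adjusted p of 0.05 under any of the alternatives run, which were the replicate block, each array left out, 3 other scalings, a filter on the lowest 25% of probe sets, a fit restricted to single-symbol probe sets, a trended and a robust eBayes, genes as means of their probe sets, and a threshold of 0.1; their lowest adjusted p was 0.592. The median log2 difference of the 32 genes ran from 0.10 to 0.29 as arrays were left out, was 0.13 with each array centred on its median, where all probe sets were at -0.02, and was 0.16 after quantile normalization or cyclic loess. Centring together with leaving out occluded replicate 1, chosen after seeing the data, gave 0.05, against -0.03 for all probe sets, with 22 genes above 0. The count above 0 ran from 25 to 31 as arrays were left out. The count higher at an unadjusted p under 0.05, 3 over all arrays, ran from 0 to 7 as arrays were left out. It was 1 without occluded replicate 1 (3.12%, against 3.54% of all probe sets). It was 0 without contralateral replicate 2 (against 2.21%) and 7 without occluded replicate 3 (21.9%, against 4.24%). With centring the count was 1 (3.12%, against 2.19%), and with centring and without occluded replicate 1 it was 1 (3.12%, against 2.52%). It was 5 of 29 genes without the lowest 25% of probe sets (17.2%, against 4.54% of all tested) and 5 with single-symbol probe sets (15.6%, against 4.95%). Deviations of same-numbered arrays from their group means correlated at 0.009, 0.166 and -0.041. With 3 arrays a side these values cannot show whether the numbers mark pairs. The labels do not tie arrays to mice, so the main fit used no pairs. With the replicate block the count was 5 (15.6%, against 3.81%) and the adjusted calls 0. Over all probe sets 1 was called with single-symbol probe sets, 1 without contralateral replicate 2 and 0 otherwise.

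In 22 of the 32 genes no alternative turned the sign. With centring, log2 differences turned to -0.029 for Fcgr1, -0.0089 for Cx3cr1, -0.042 for Trem2, -0.065 for Marco and -0.078 for Aif1. After quantile normalization they turned to -0.0079 for Cx3cr1, -0.013 for Trem2, -0.012 for Marco and -0.036 for Aif1. After cyclic loess they turned to -0.0058 for Cx3cr1, -0.014 for Trem2, -0.0046 for Marco and -0.030 for Aif1. With centring and without occluded replicate 1 they turned to -0.030 for C1qc, -0.037 for Fcgr1, -0.14 for Cd74, -0.11 for Cx3cr1, -0.033 for Trem2, -0.066 for Marco and -0.14 for Aif1. As arrays were left out, the difference ran from -0.047 to 0.17 for Clec7a, from -0.093 to 0.27 for Cd74, from -0.063 to 0.27 for Cx3cr1, from -0.054 to 0.14 for Trem2, from -0.070 to 0.044 for Ly86, from -0.022 to 0.050 for Marco, from -0.098 to 0.087 for Ctss and from -0.096 to 0.084 for Aif1. The causes were not tested. With 3 arrays a side, 95% intervals excluded 0 only for Tyrobp, Cd14 and Fcgr3 among the 32 genes.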
